A study of Homo sapiens with 16 samples.

Results

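The nucleolar ribosome biogenesis genes described here are NCL, NPM1, FBL, NOP56, NOP58, DKC1, GAR1, PES1, BOP1 and WDR12. They were taken by gene symbol from a given list, which was chosen with earlier results of these data known. Each symbol matched 1 gene, so that the set holds 10 of the 57500 genes in the count tables, and 10 of 10 passed the filter on low counts that left 17306 tested genes.

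The nucleolus is the nuclear body where ribosomal RNA is transcribed by RNA polymerase I, chemically modified, cut and packed with ribosomal proteins into the small and the large subunit. Small nucleolar RNAs guide the modification: FBL (fibrillarin) is the methyltransferase of the box C/D particles, with NOP56 and NOP58 as their scaffold, and DKC1 (dyskerin) is the pseudouridine synthase of the H/ACA particles, with GAR1 as a core partner. PES1, BOP1 and WDR12 form the PeBoW complex of large subunit processing, while NCL (nucleolin) and NPM1 (nucleophosmin) are abundant nucleolar RNA-binding and chaperone proteins, and growing cells are known to make much of all of these.

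Total RNA was sequenced in 16 libraries of HEK293T, an established line from human embryonic kidney that expresses the large T antigen of SV40, kept in medium with serum. All cells carried a lentivector, either for histone H2A or for its mutant H2A(E92K), whose lysine replaces a glutamate in the acidic patch on the nucleosome surface. The 4 groups held 4 libraries each: H2A cells with DMSO, the solvent, E92K cells with DMSO, H2A cells with 1 µM JQ1 for 3 h, and H2A cells with 2.5 µM pinometostat for 24 h. JQ1 blocks the bromodomains with which BET proteins bind acetylated histones, and pinometostat is an inhibitor of the histone H3 methyltransferase DOT1L. The labels give no time with DMSO, and the same 4 H2A libraries with DMSO are the controls of every comparison against DMSO, so that time in culture and compound cannot be told apart. The labels do not say whether a vector line is a clone or a pool, or whether the libraries of a group came from separate cultures. The p-values therefore measure the spread between these libraries, which may be technical.

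Depth ran from 17779692 to 27599686 counts per library. All 10 markers listed for HEK293 cells had a mean of at least 1 CPM (the count relative to the TMM-scaled library size) over the 16 libraries. The same held for 1 of 7 blood cell markers, 0 of 4 endothelial, 1 of 5 hepatocyte and gut and 5 of 6 fibroblast markers. JQ1 replicate 1 stood apart: mitochondrially encoded genes took 16.5% of its counts, where replicates 2 to 4 had 3.04% to 3.69%. E92K replicate 4 followed with 7.45%, and the remaining libraries had 3.66% to 5.04%. Among the 4 JQ1 libraries, replicate 1 was highest for 8 of the 10 genes in CPM but lowest for 9 of the 10 in TPM, a length-corrected unit with a fixed sum per library in which the mitochondrial counts take part. The calls on JQ1 among the 10 genes and most of the list counts are given with and without it.

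Promoter sequences are shown for some of the genes that passed a test in comparisons with the pinometostat group or the E92K cells. FBL also passed such tests and has a window in the RefSeq table (GRCh38.p14), but its sequence is not shown. The stretches shown come from that table. Each is the longest part of a 250-base window free of annotated exons of its own gene: 140 bases for NCL, 191 for PES1 and 250 for GAR1. Exons of other genes were not checked. They are NCL at chr2:231464595-231464734 (minus strand), PES1 at chr22:30591941-30592131 (minus strand) and GAR1 at chr4:109815260-109815509 (plus strand), 5′ to 3′. Capitals mark a match to the ETS factor motif CCGGAAGT, read on the other strand.
NCL: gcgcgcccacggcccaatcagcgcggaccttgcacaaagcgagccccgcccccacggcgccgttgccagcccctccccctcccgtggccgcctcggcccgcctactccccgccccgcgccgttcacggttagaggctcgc
PES1: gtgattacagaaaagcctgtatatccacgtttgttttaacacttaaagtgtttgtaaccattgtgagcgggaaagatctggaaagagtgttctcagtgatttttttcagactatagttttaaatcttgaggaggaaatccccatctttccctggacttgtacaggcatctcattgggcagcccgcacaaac
GAR1: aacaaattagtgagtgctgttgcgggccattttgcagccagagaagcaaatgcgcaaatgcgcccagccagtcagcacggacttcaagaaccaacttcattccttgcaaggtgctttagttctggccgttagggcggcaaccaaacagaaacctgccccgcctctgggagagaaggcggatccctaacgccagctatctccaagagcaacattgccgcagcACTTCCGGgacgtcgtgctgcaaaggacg
The NCL stretch was 77.1% G and C, the GAR1 stretch 55.2% and the PES1 stretch 40.8%. The table held 10 windows for 8 of the 10 genes. Motifs were searched on both strands of the 250 bases before the start. Most of these windows of the set overlapped annotated exons of their own gene. The E-box CACGTG, the binding motif of MYC, was in 0 of the 10 windows and in 6.34% of all 35116 windows of that length. The ETS motif was in 1 window (GAR1) against 3.42% of all windows, the NRF1 motif in 1 (DKC1) against 1.03%, and TATAAA in 0 against 10.7%. A match is a description of the letters and not a measured site.

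In the control cells the 10 genes spanned a wide range of levels per unit of length. In TPM, H2A cells with DMSO had 2616 ± 164 for NPM1 (SD, n = 4), the rank of 45 among all 57500 genes, 868 ± 38.9 for FBL and 395 ± 62.3 for NCL. DKC1 followed at 195 ± 5.65 TPM. NOP56 at 162 ± 7.26, NOP58 at 154 ± 16.8, PES1 at 139 ± 9.04 and BOP1 at 132 ± 13.4 TPM came next, and the ranges of neighbours in this run of 4 overlapped. GAR1 at 84.2 ± 12.1 and WDR12 at 27.4 ± 1.22 TPM were the lowest, and their ranges overlapped with no neighbour. Within the box C/D core, FBL thus stood above its scaffold partners, and within PeBoW, WDR12 stood below PES1 and BOP1. The exonic length behind each TPM covers all isoforms, 9098 bases for WDR12 and 2046 for GAR1, and NPM1 has 45 named processed pseudogenes, which took counts equal to 0.974% of its own. CARF, on the opposite strand, shares exon sequence with WDR12 and had counts equal to 7.05% of it. TCN2 does so with PES1 (1.70%), and whether counting used strand is not given in the sources used here.

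**Figure D1:**
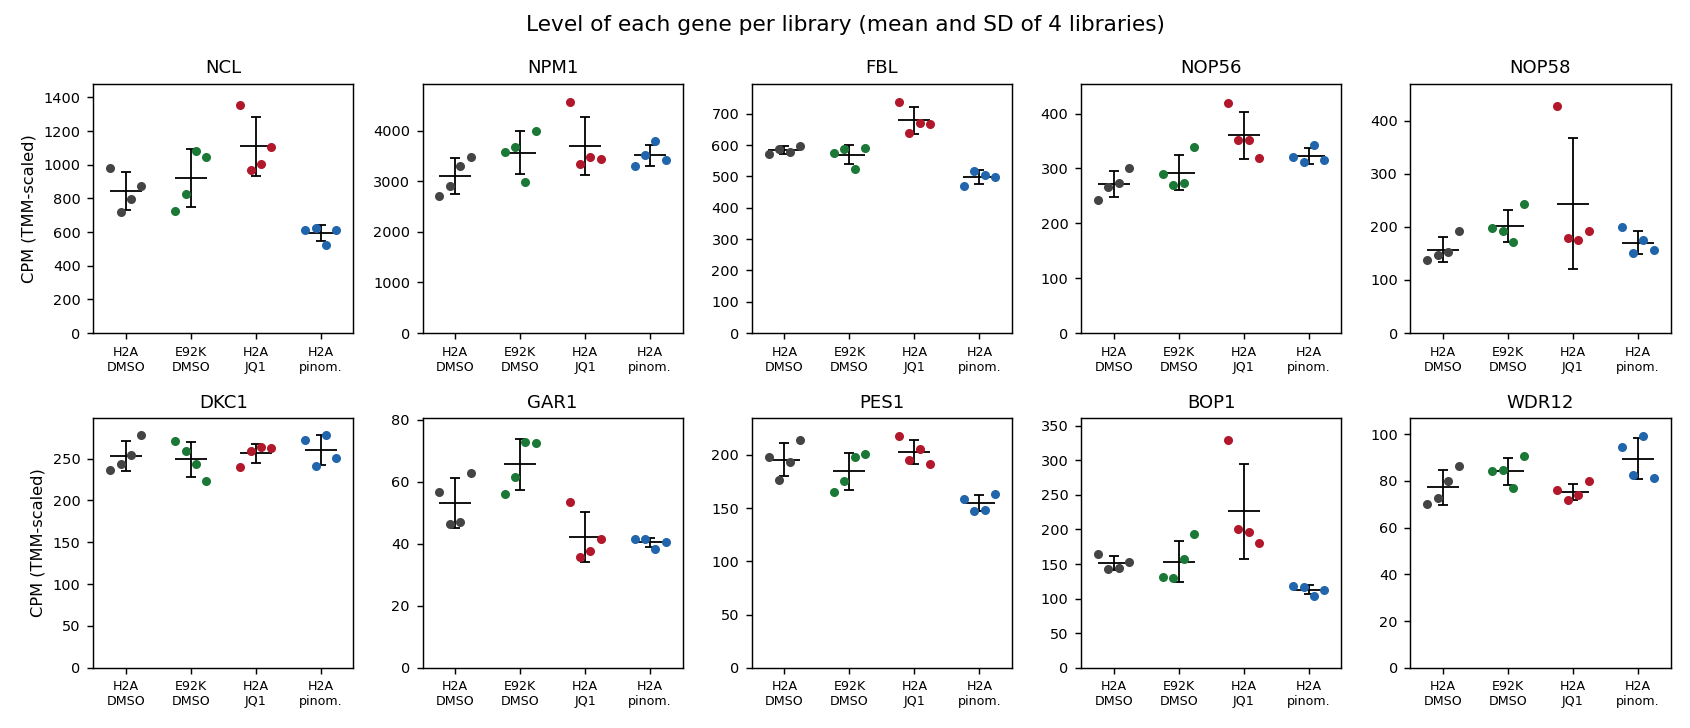
Level of each of the 10 genes in CPM (y axes, from 0) in the 16 libraries, by group; points are libraries in the order of their replicate numbers, the horizontal line is the mean and the bar the SD of 4 libraries. JQ1 replicate 1 is the top JQ1 point for 8 genes, with 428 CPM for NOP58 against 175 to 192 in the other JQ1 libraries.

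The first comparison asks whether the acidic patch mutant alters the nucleolar genes. In E92K cells 0 of 10 genes passed at an adjusted p of 0.05 by the quasi-likelihood test of edgeR, where 0% of all tested genes did, and 0 by DESeq2. With library quality weights in limma-voom 2 passed, both higher, NOP58 (adjusted p = 0.0425) and GAR1 (adjusted p = 0.0492). In that setting 1098 of all 17306 tested genes passed, 476 of them higher. In this bulk RNA, fewer cells expressing a gene and less RNA per cell cannot be told apart. At an unadjusted p below 0.05, 1 of the 10 was found, against 7.49% of all tested genes. That gene was GAR1, with 56.1, 61.4, 72.7 and 72.4 CPM in E92K cells and 56.8, 46.3, 46.9 and 62.7 CPM with H2A. The E92K values reached higher, but the groups overlapped, as they did for all 10 genes (groups did not overlap for 5.17% of all tested genes). The log2 fold change of GAR1 was 0.30 ± 0.13 (SE), with an edgeR adjusted p of 0.656. NOP58 had the largest difference, 0.35 ± 0.23 (edgeR adjusted p = 0.675). NOP58 read 198, 192, 171 and 243 CPM in E92K cells and 138, 146, 152 and 192 CPM in H2A cells, where replicate 4 was the highest in each group. The median log2 fold change of the set was 0.12, that of all tested genes 0.00.

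With JQ1, 2 of the 10 genes rose and 0 fell, beside 17.6% of all tested genes that passed (7.16% higher and 10.4% lower). They were NOP56, of the box C/D scaffold, and BOP1, the PeBoW subunit that holds PES1 and WDR12 together. The set's median log2 fold change was 0.24, against 0.04 over all tested genes, and 8 of the 10 values were positive. The set's median was 0.13 without JQ1 replicate 1, 0.04 by library size alone and -0.06 on the log2(TPM + 1) scale. NOP56 read 243, 266, 274 and 301 CPM with DMSO and 420, 351, 351 and 318 CPM with JQ1. Every JQ1 library lay above every DMSO library. Its log2 fold change was 0.41 ± 0.11 (SE; edgeR adjusted p = 0.0136), and 0.30 ± 0.10 without JQ1 replicate 1 (edgeR adjusted p = 0.0343). BOP1 read 164, 143, 144 and 153 CPM with DMSO and 329, 200, 196 and 181 CPM with JQ1. The groups did not overlap, and replicate 1 was far above the other JQ1 libraries. The log2 fold change of BOP1 was 0.58 ± 0.17 (edgeR adjusted p = 0.0203). Without that library it was 0.32 ± 0.12 and did not pass (edgeR adjusted p = 0.0648). Leaving out DMSO replicate 2 or 3 also ended the BOP1 call, at adjusted p of 0.0592 and 0.0585 (edgeR).

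The other box C/D proteins did not pass with JQ1. FBL read 571, 589, 577 and 598 CPM with DMSO and 738, 638, 672 and 669 CPM with JQ1, without overlap, at a log2 fold change of 0.22 ± 0.09 (edgeR adjusted p = 0.0931). It was the third gene whose groups did not overlap, all 3 higher with JQ1 (8.26% of all tested genes did so in that direction). NOP58 had the largest difference of the set, 0.63 ± 0.23 (edgeR adjusted p = 0.0669), which rested on replicate 1: it read 428, 179, 175 and 192 CPM with JQ1, and the difference was 0.18 ± 0.13 without replicate 1. NCL differed by 0.40 ± 0.14 (edgeR adjusted p = 0.0680) and NPM1 by 0.26 ± 0.13 (edgeR adjusted p = 0.184). PES1 at 0.05, DKC1 at 0.02 and WDR12 at -0.03 were close to 0 on the log2 scale. The signs of PES1 and DKC1 turned when counts were scaled by library size or upper quartile or taken as TPM, and those of FBL and NPM1 on TPM.

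GAR1 had the lowest log2 fold change of the set with JQ1, and its groups overlapped. It read 53.6, 35.6, 37.6 and 41.7 CPM against 56.8, 46.3, 46.9 and 62.7 CPM with DMSO, and replicate 1 lay within the DMSO range while the other JQ1 libraries lay below it. The log2 fold change was -0.34 ± 0.14 (edgeR adjusted p = 0.0961). Without JQ1 replicate 1 it was -0.50 ± 0.12 and passed (edgeR adjusted p = 0.00519), so that 1 gene rose and 1 fell in those 15 libraries. The scaling moved these values: the median of all tested genes in this comparison was 0.04 by TMM, -0.14 by library size alone and -0.21 on log2(TPM + 1). Of the genes called, 40.7% were higher by TMM, 14.3% by library size, 27.4% by upper quartile and 8.77% on TPM. By library size alone and on TPM, 0 of the 10 genes were called higher and 1, GAR1, was called lower. On TPM, NOP56 differed by 0.11 and BOP1 by 0.24 on the log2(TPM + 1) scale.

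With pinometostat, 2 of the 10 genes fell and 0 rose, beside 8.2% of all tested genes that passed (3.62% higher and 4.58% lower). They were NCL, the nucleolar RNA-binding protein, and PES1, of PeBoW. The median of the set was -0.09 and that of all tested genes 0.03 on the log2 scale. NCL read 983, 722, 796 and 872 CPM with DMSO and 610, 625, 522 and 613 CPM with pinometostat, all below the DMSO libraries. Its log2 fold change was -0.51 ± 0.14 (SE; edgeR adjusted p = 0.0386). PES1 read 198, 177, 193 and 214 CPM with DMSO and 159, 148, 149 and 163 CPM with pinometostat, again without overlap. Its log2 fold change was -0.34 ± 0.10 (edgeR adjusted p = 0.0374).

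These are calls near the threshold. Both ended when any of the 4 pinometostat libraries, or DMSO replicate 1, 3 or 4, was left out, with edgeR adjusted p of up to 0.143 for NCL and 0.0985 for PES1, while the log2 fold changes of those fits ran from -0.54 to -0.44 and from -0.37 to -0.29. Without JQ1 replicate 1, which is in neither group compared here, 5 of the 10 genes passed, all lower, beside 21.0% of the 17590 genes then tested (13.8% lower). They were NCL at -0.56, BOP1 at -0.48, GAR1 at -0.45, PES1 at -0.39 and FBL at -0.28. The same 5 were the genes whose groups lay entirely below DMSO, beside 13.5% of all tested genes. BOP1 read 118, 117, 104 and 112 CPM with pinometostat against 164, 143, 144 and 153 CPM with DMSO, and with all 16 libraries its log2 fold change was -0.42 ± 0.17 (edgeR adjusted p = 0.116). GAR1 read 41.5, 41.5, 38.2 and 40.7 CPM, all below the DMSO libraries given above, at -0.39 ± 0.14 (edgeR adjusted p = 0.0783). FBL read 469, 519, 505 and 500 CPM, at -0.23 ± 0.09 (edgeR adjusted p = 0.108).

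NOP56 was the gene of the set that lay entirely above DMSO, at 320, 312, 343 and 315 CPM, beside 12.7% of all tested genes. It did not pass (0.25 ± 0.11, edgeR adjusted p = 0.151). WDR12 read 94.5, 82.6, 99.2 and 81.3 CPM against 70.1, 72.5, 79.8 and 86.4 CPM with DMSO, which overlapped, at 0.21 ± 0.10 (edgeR adjusted p = 0.188). NPM1 at 0.18, NOP58 at 0.11 and DKC1 at 0.04 completed the set on the log2 scale, and the sign of DKC1 turned by library size and on TPM, as did that of NOP58 on TPM.

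**Figure D2:**
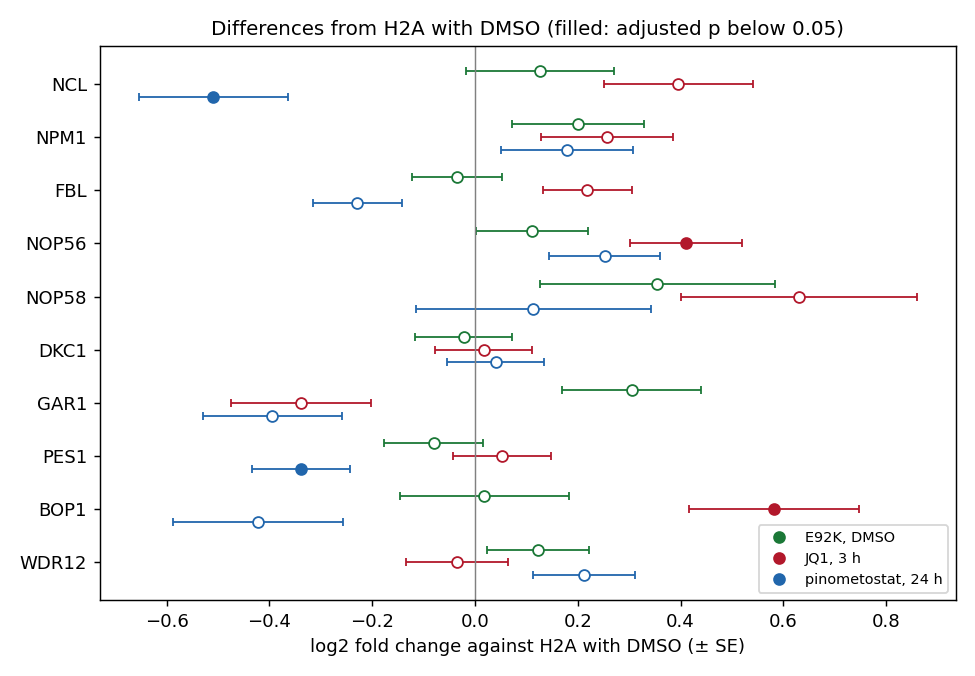
Log2 fold change of each gene against H2A cells with DMSO (x axis, edgeR, bars are SE) for E92K cells, JQ1 and pinometostat; filled points have an adjusted p below 0.05. Filled points are NOP56 at 0.41 and BOP1 at 0.58 with JQ1, and NCL at -0.51 and PES1 at -0.34 with pinometostat.

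All differences above share 1 scaling per library, so ratios of TPM between partners in the same library were also taken, which no library scaling moves. The 8 ratios were chosen after the values were seen and are given with no test. With pinometostat, NOP56 over FBL was 0.262 ± 0.0161 (SD, n = 4), above every DMSO library (0.187 ± 0.0133). WDR12 over PES1 was 0.291 ± 0.0355 against 0.198 ± 0.0142, and WDR12 over BOP1 was 0.325 ± 0.0463 against 0.209 ± 0.0258. In these 3 ratios every pinometostat library lay above every DMSO library. Each holds a gene whose groups did not overlap on its own (NOP56, FBL, PES1 or BOP1), so the ratios partly restate those results. No share over other gene pairs was taken.

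With pinometostat, GAR1 over DKC1, the H/ACA pair, was 0.321 ± 0.0308 against 0.431 ± 0.0560 with DMSO, and NCL over NPM1 was 0.0938 ± 0.0120 against 0.152 ± 0.0324. In both ratios all pinometostat libraries lay below all DMSO libraries, as GAR1 and NCL did on their own. BOP1 over PES1 was 0.897 ± 0.0612 with pinometostat and 0.952 ± 0.0655 with DMSO, which overlapped. The JQ1 libraries lay above DMSO in that ratio, at 1.86, 1.26, 1.17 and 1.16. This is a difference in proportion that all 4 JQ1 libraries showed, replicate 1 the most. In E92K cells, NOP58 over FBL was 0.233 ± 0.0262 against 0.178 ± 0.0240, without overlap, and the remaining 7 ratios overlapped with DMSO.

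**Figure D3:**
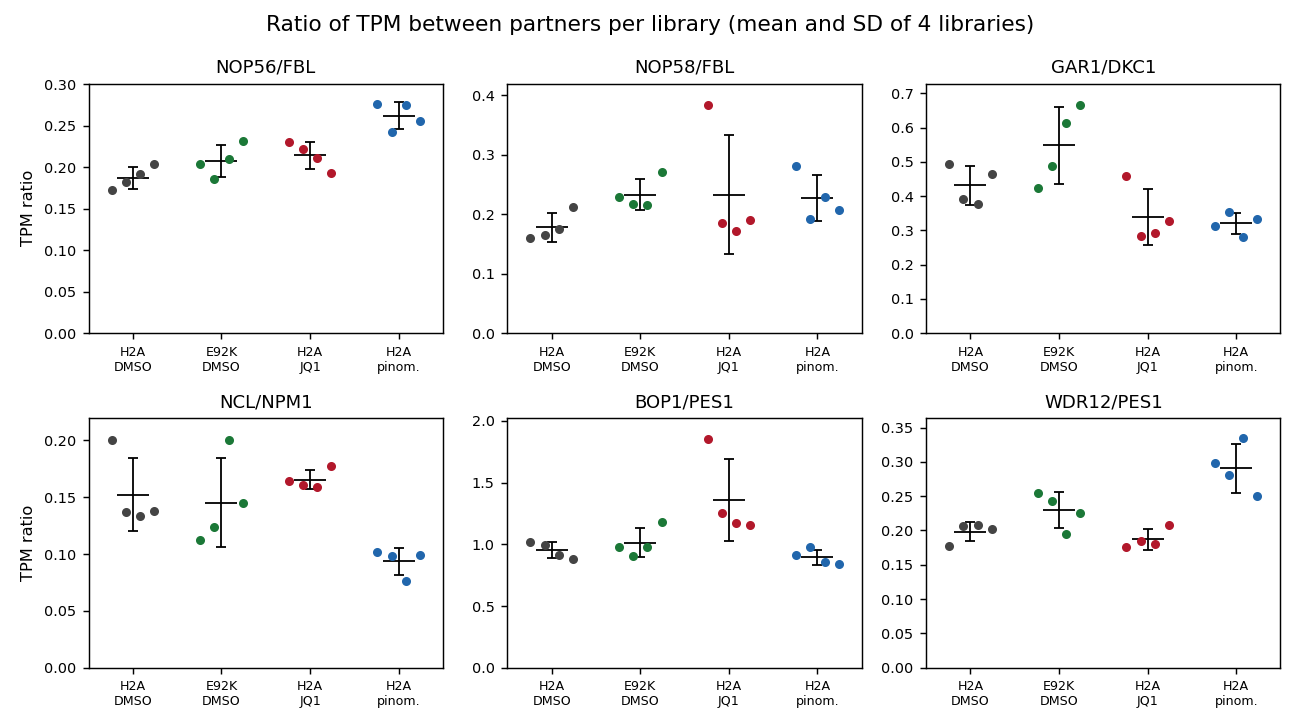
Ratio of TPM between partners (y axes, from 0) in each of 16 libraries by group, for 6 of the 8 ratios, with the mean and SD of 4 libraries. With pinometostat, NOP56/FBL (0.262) and WDR12/PES1 (0.291) lie above and GAR1/DKC1 (0.321) and NCL/NPM1 (0.0938) below all DMSO libraries.

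The 2 compounds were also compared directly, at their own doses and times. Here 4 of the 10 genes were higher with JQ1 and none lower, beside 34.2% of all tested genes that passed (16.8% higher with JQ1). BOP1 differed by 1.00 ± 0.17 on the log2 scale (edgeR adjusted p = 0.000184) and NCL by 0.90 ± 0.15 (edgeR adjusted p = 0.000145). FBL differed by 0.45 ± 0.09 (edgeR adjusted p = 0.000728) and PES1 by 0.39 ± 0.10 (edgeR adjusted p = 0.00426). In these 4 genes every JQ1 library lay above every pinometostat library. WDR12 lay entirely lower with JQ1, at -0.25 ± 0.10, and did not pass (edgeR adjusted p = 0.0635). Groups did not overlap for 33.2% of all tested genes. Without JQ1 replicate 1 the 4 calls stood, with BOP1 at 0.80 and NCL at 0.82, and NCL and BOP1 passed in each of 30 other settings.

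GAR1 separated E92K cells from both compounds. E92K cells had 65.7 ± 8.24 CPM of GAR1 (SD, n = 4), JQ1 42.1 ± 8.06 and pinometostat 40.5 ± 1.55 CPM, with no overlap of E92K with either. Against JQ1, GAR1 was higher in E92K cells by 0.64 ± 0.14 on the log2 scale (edgeR adjusted p = 0.00238), which passed in each of 30 other settings. BOP1 was lower by 0.56 ± 0.17 on that scale (edgeR adjusted p = 0.0190) and FBL by 0.25 ± 0.09 (edgeR adjusted p = 0.0429), so that 1 gene was higher and 2 were lower, beside 22.9% of all tested genes that passed (11.9% higher and 10.9% lower). The BOP1 groups overlapped, with E92K replicate 4 at 193 CPM and JQ1 replicate 4 at 181 CPM, and the BOP1 call ended without E92K replicate 1 or 2. Without JQ1 replicate 1 it stood, at a log2 fold change of -0.32 (edgeR adjusted p = 0.0427). The FBL call held in 12 of the 30 other settings and ended without replicate 1, 2 or 3 of E92K, 1, 2 or 3 of JQ1, 3 of DMSO or 2, 3 or 4 of pinometostat. Against pinometostat, GAR1 alone passed, at 0.70 ± 0.14 (edgeR adjusted p = 0.0409), beside 0.352% of all tested genes (0.168% higher), and in 13 of the 30 other settings. Leaving out any E92K or pinometostat library ended it, at log2 fold changes of 0.66 to 0.78, as did leaving out DMSO replicate 2 or 3 or JQ1 replicate 2, 3 or 4. The groups did not overlap for 5 of the 10 genes, GAR1, NCL, FBL, PES1 and BOP1, all higher in E92K cells (7.92% of all tested genes did so).

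Other factors of the pathway were taken from 4 lists with 131 genes in all, every one of which was tested. In E92K cells 0 of the 131 passed by edgeR or DESeq2. At an unadjusted p below 0.05 by edgeR there were 9 (6.87%, against 7.49% of all tested genes, both shares for either direction). All 9 were higher, and no share over all tested genes is given for that direction alone. With JQ1, 12 rose and 5 fell (13%, against 17.6% of all tested genes), and with pinometostat 1 rose and 10 fell (8.40%, against 8.2%). The direction of the JQ1 calls turned with the scaling: 1 gene was higher and 12 lower by library size alone, 3 higher and 8 lower by upper quartile, 1 higher and 7 lower on TPM, and 5 higher and 8 lower without JQ1 replicate 1. The pinometostat counts moved too, to 2 higher and 5 lower by upper quartile (774 and 580 of all 17306 genes). Without JQ1 replicate 1 they were 4 and 26 (1269 and 2432 of 17590 genes). Without E92K replicate 4 as well they were 15 and 28 (2252 and 2530 of 17446 genes). The medians of the 131 log2 fold changes were 0.10 in E92K cells, 0.07 with JQ1 and -0.05 with pinometostat. Of all tested genes, 3.62% rose and 4.58% fell with pinometostat. In the large subunit list, whose processing PeBoW serves, 0 of 57 rose and 6 fell with pinometostat. They included DDX54 at -0.62 ± 0.11 (edgeR adjusted p = 0.00663), FTSJ3, an RNA methyltransferase, at -0.57 ± 0.11, SURF6 at -0.61 ± 0.14 and DDX24 at -0.40 ± 0.10. Without JQ1 replicate 1, 1 rose and 13 fell, where 7.21% of all genes then tested rose and 13.8% fell.

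With JQ1 the large subunit list held 3 genes that rose and 2 that fell of 57, and 2 that rose and 3 that fell without JQ1 replicate 1. Of all tested genes, 7.16% rose and 10.4% fell with JQ1, and 6.30% and 11.9% did so without that library. BRIX1 fell (-0.51 ± 0.12, edgeR adjusted p = 0.00530), as did TEX10, of the rixosome, at -0.41 ± 0.11, while URB1 rose by 0.48 ± 0.12 and NOC2L by 0.41 ± 0.14 (0.24 without JQ1 replicate 1, where it did not pass, edgeR adjusted p = 0.171). In the small subunit list, 7 of 45 rose and 2 fell with JQ1, and 2 rose and 4 fell without JQ1 replicate 1. By library size alone 0 were higher and 8 lower, by upper quartile 1 and 5, and on TPM 0 and 2. IMP3, of the U3 particle, rose by 0.51 ± 0.12 (edgeR adjusted p = 0.00802), RRP9, the U3-specific protein, by 0.67 ± 0.21 and DDX49 by 0.47 ± 0.14, while BYSL fell (-0.35 ± 0.11). Without JQ1 replicate 1, RRP9 was at 0.39 and DDX49 at 0.33 and neither passed (edgeR adjusted p = 0.115 and 0.0851). IMP3 at 0.40 and BYSL at -0.28 still passed there (edgeR adjusted p = 0.0158 and 0.0352). With pinometostat 0 of 45 rose and 3 fell, NOC4L at -0.63 ± 0.15, AATF at -0.49 ± 0.13 and TBL3 at -0.47 ± 0.14, beside 4.58% of all tested genes that fell. Without JQ1 replicate 1, 8 fell, where 13.8% of all genes then tested did.

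Of the 14 partners and assembly factors of the nucleolar RNA particles, 1 rose with JQ1, the ATPase RUVBL2 (0.46 ± 0.15, edgeR adjusted p = 0.0383), and 0 did without JQ1 replicate 1. With pinometostat the assembly factor ZNHIT3 rose by 0.55 ± 0.12 (edgeR adjusted p = 0.0135) and its relative ZNHIT6 fell (-0.41 ± 0.12). Of 15 genes of RNA polymerase I and its factors, the subunit gene CD3EAP rose by 0.84 ± 0.19 with JQ1 (edgeR adjusted p = 0.00523) and TAF1A, of its promoter factor, fell (-0.46 ± 0.13). CD3EAP was at 0.53 and TAF1A at -0.44 without JQ1 replicate 1, and both passed (edgeR adjusted p = 0.00893 and 0.0267). With pinometostat 0 of the 15 passed by edgeR, where 8.2% of all tested genes did. Among 11 small RNA genes of the pathway, 4 were tested, and 3 copies of the U3 gene rose with JQ1: SNORD3B-1 by 3.00 ± 0.68, SNORD3B-2 by 2.86 ± 0.49 and SNORD3A by 2.11 ± 0.39. These near-identical copies share reads and are uncertain, at 328 to 445 counts each over 16 libraries, with JQ1 replicate 1 the highest library in each. Without it all 3 still passed, with SNORD3B-1 at 1.93 and SNORD3B-2 at 2.16.

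**Figure D4:**
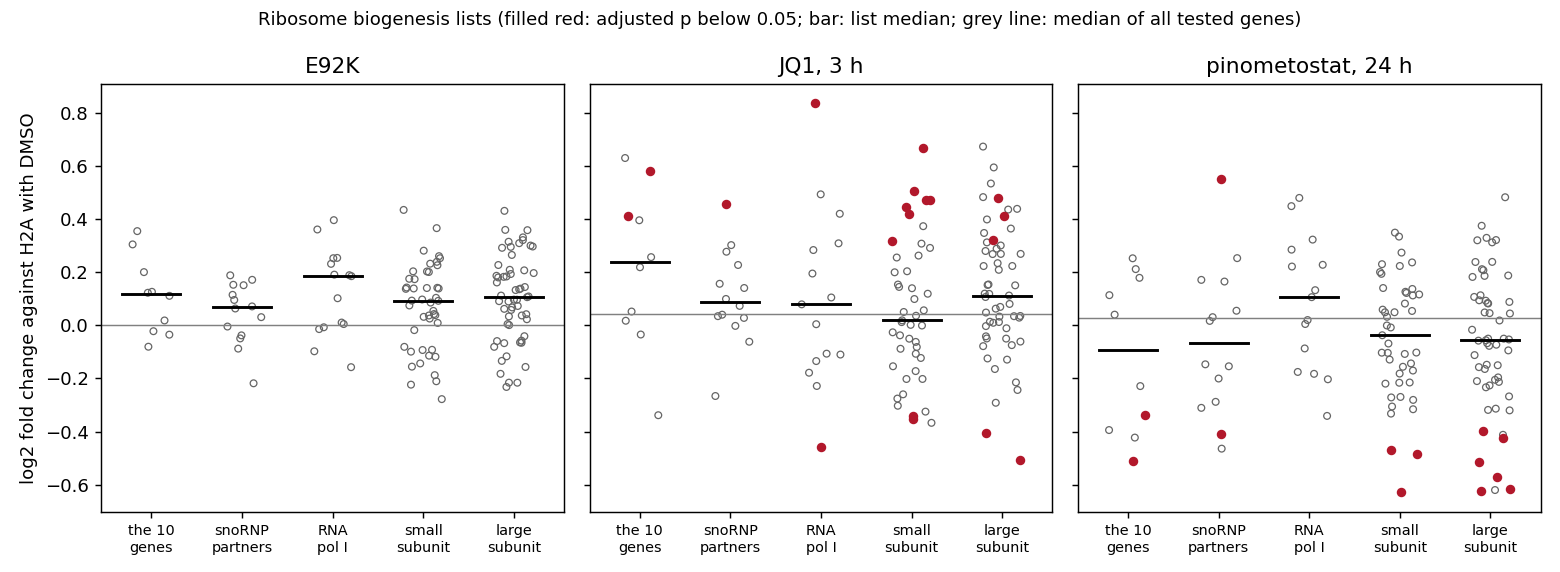
Log2 fold change against H2A cells with DMSO (y axis) of every tested gene of the set and of 4 lists, for E92K cells, JQ1 and pinometostat; red points have an edgeR adjusted p below 0.05, black bars are list medians, and the grey line is the median of all tested genes. The 131 list genes hold 12 red points above and 5 below 0 with JQ1, and 1 above and 10 below with pinometostat.

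MYC, a transcription factor known to drive many ribosome biogenesis genes, moved further with JQ1 than any gene of the set, from 264, 250, 229 and 168 CPM with DMSO to 178, 841, 816 and 797 CPM. JQ1 replicate 1 was the exception and lay within the DMSO range. MYC rose by 1.53 ± 0.38 on the log2 scale (edgeR adjusted p = 0.00948), and by 1.82 ± 0.25 without that library. In that library 8 of the 10 genes had their highest CPM of the JQ1 group, but 9 of the 10 had their lowest TPM. Among other genes listed for the MYC network, MXD1 rose with JQ1 by 1.54 ± 0.17 (edgeR adjusted p = 5.15e-06). MYCL fell (-1.15 ± 0.20), as did MYCN (-1.18 ± 0.32), which had only 1.73 CPM with DMSO. Whether MYC and the set are linked in these cells was not tested.

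Over the 16 libraries the genes did not move as 1 block. By Pearson r of log2 CPM, given as a description over libraries that share scaling and groups, NCL went with BOP1 (0.91) and PES1 (0.90), and NOP58 with NPM1 (0.81). WDR12 ran against NCL (-0.55), FBL (-0.53), PES1 (-0.52) and its other PeBoW partner BOP1 (-0.51). DKC1 and GAR1, of the same particle, had an r of -0.40. The 5 genes outside the set most like its mean profile, out of 11488 with at least 5 CPM, were NANS (r = 0.970), PSMD4 (0.968), PITHD1 (0.958), AHSA1 (0.949) and TOMM40 (0.946). That profile, the mean of standardized log2 CPM, peaked in JQ1 replicate 1 at 1.43, against 0.10 to 0.32 in the other JQ1 libraries. NOP58, NPM1, NCL, BOP1 and PES1 also had their highest CPM of the 16 libraries there. No r was taken without that library.

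The base composition of transcripts moved with these differences over all genes. With pinometostat, the median log2 fold change of genes ranked by GC content of their longest coding transcript went from 0.18 in the lowest of 5 equal groups to -0.24 in the highest, with JQ1 from -0.02 to 0.17 and in E92K cells from 0.10 to -0.12. The genes of the set with the highest GC were BOP1 (65.2%), PES1 (58.2%), FBL (57.9%) and NOP56 (56.0%), and the lowest were WDR12 (40.2%), NOP58 (41.3%) and NPM1 (43.3%). NCL (47.2%), GAR1 (47.1%) and DKC1 (48.4%) lay in the middle group, whose median with pinometostat was -0.04, against -0.51 for NCL and -0.39 for GAR1. NOP56, at 0.25, lay in the next group up, whose median was -0.16. PES1 (-0.34) and FBL (-0.23) lay in that same group. BOP1 (-0.42) lay in the highest group (-0.24) and WDR12 (0.21) in the lowest (0.18). Over the 10 genes, the Pearson r of GC content and log2 fold change was -0.48 with pinometostat, 0.24 with JQ1 and -0.67 in E92K cells. Over all 13924 genes with a GC value it was -0.41, 0.12 and -0.33. The part of GC content in the results was not tested.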

How the data were processed

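Total RNA of 16 HEK293T samples was sequenced, 4 in each of 4 groups, which were taken from the sample titles. The authors deposited gene-level counts, all whole numbers, and TPM values, and TPM equalled counts over exonic length scaled to a fixed sum (largest difference 5e-05). Which aligner, counter, strand setting and build were used was not given in the sources used here. Gene coordinates in the files had the same start and end as GENCODE 29 (GRCh38) for 96.3% of 56898 shared identifiers and for 10 of the 10 genes. The treatment text gives pinometostat in millimolar, and the sample field, 2.5 µM, was used. No replicate pair agreed within sampling noise (smallest chi-square per degree of freedom 3.54).

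Genes were kept by filterByExpr (minimum count 10, minimum total 15), scaled by TMM and fitted with edgeR 4.0.16 (glmQLFit, R 4.3.3), 1 mean for each group, on the 16 libraries together. Tests were two-sided, adjusted by Benjamini-Hochberg over 17306 genes, with a threshold of 0.05 in all 6 pairs of groups. SE is the log2 fold change over the square root of F. The test was tested on simulated data. Named were the 10 genes, up to 4 called genes per list and comparison against DMSO, MYC, the 5 genes of most similar profile, and copies or overlapping genes. The genes and lists were chosen with earlier results of these data known, and ratios, GC groups and motifs were added after the values were seen. The 30 other settings used DESeq2 1.42.0, limma 3.58.1 (voom, library quality weights, log2(TPM + 1)), other scalings and filters, 8 libraries, a replicate block, a threshold of 0.01, each library left out, JQ1 replicate 1 and E92K replicate 4 left out, and counts without mitochondrially encoded genes. Figures used matplotlib 3.10.9.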

Additional observations from a re-analysis of the deposited data

Results flagged for a closer look

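In 4 of the 40 sets of 4 libraries (10 genes by 4 groups) a library lay far from the other 3 by the gap test of Dixon, where chance gives about 1 in 20. Of these, 3 were JQ1 replicate 1, the library with 16.5% mitochondrial counts: NOP58 at 428 CPM (175 to 192 in the other JQ1 libraries), NPM1 at 4558 CPM (3338 to 3487) and BOP1 at 329 CPM (181 to 200). NCL in pinometostat replicate 3 was low, at 522 CPM against 610 to 625. Without that library, NCL differed from DMSO by -0.46 on the log2 scale, and the edgeR adjusted p was 0.110.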

How the results depend on the processing

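The number of the 10 genes called against H2A with DMSO depended on the setting. In E92K cells it was 0 and became 2 with library quality weights (limma-voom). With JQ1 it was 2, and became 5 with DESeq2, 6 with library quality weights, 1 by library size alone and 1 on TPM, 0 with only the 8 libraries compared and 0 at an adjusted p of 0.01; leaving out 1 library gave 1 to 3. With pinometostat it was 2, and became 4 with DESeq2, 6 with quality weights, 5 by library size, 0 by upper quartile scaling, 1 with no filter, 6 with 8 libraries, 0 at 0.01, 4 without mitochondrially encoded genes and 6 without JQ1 replicate 1 and E92K replicate 4. Leaving out 1 library gave 0 to 5. Of all 17306 genes pinometostat called 1419, and 2348 with DESeq2, 5548 with quality weights, 1213 by library size and 1354 by upper quartile. It called 4610 of 16721 with 8 libraries and 4782 of 17446 without that pair. Of all 17306 genes JQ1 called 3044, and 3675 with DESeq2, 5762 with quality weights and 3038 by library size. It called 1872 of 16385 with 8 libraries. E92K called 0, and 1098 with quality weights.

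JQ1 against pinometostat called 4, and 2 on TPM, beside 5919 and 3684 of all 17306 genes. E92K against JQ1 called 3, and 6 with quality weights, 2 by library size (2 higher and 0 lower), 1 by upper quartile, 1 with 8 libraries, 1 at 0.01 and 1 on TPM, with 1 to 4 on leaving out 1 library. Over all genes E92K against JQ1 called 3962, and 7819 with quality weights, 3568 by library size, 2276 with 8 libraries and 2180 on TPM. E92K against pinometostat called 1, and 4 with DESeq2, 4 with quality weights, 2 with DESeq2 size factors, 2 by library size, 0 by upper quartile, 2 with no filter, 2 with 8 libraries, 0 at 0.01, 0 on TPM, 3 without both libraries of high mitochondrial share and 2 without mitochondrially encoded genes, with 0 to 4 on leaving out 1 library. Over all genes E92K against pinometostat called 61, and 862 with DESeq2, 3160 with quality weights, 383 with 8 libraries and 1566 without both those libraries. Of 1800 log2 fold changes under other settings, 1644 kept their side of the threshold, 76 newly passed, 80 no longer passed and 0 turned the direction of a call. The causes were not tested.

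A replicate block over the number in the titles gave 0 called genes with pinometostat and 0 for E92K against pinometostat. Of 24 same-numbered pairs, 2 deviated together with a correlation above 0.1, and 5 correlated best with their own number, so that the numbers were not taken as pairing the samples. Over all tested genes, pinometostat called 1419, and 534 with the block and 457 on TPM. E92K called 0, and 4 with DESeq2. Of the genes called with pinometostat, 44.1% were higher by TMM, 32.6% by library size, 57.2% by upper quartile and 15.1% on TPM.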
